A study of Mus musculus with 6 samples.

Results

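The genes described here flank Mir21a, the mouse gene of miR-21, on chromosome 11, and were compared between smooth muscle samples of miR-21 knockout and WT mice. A row of the deposited table belonged to the set if it lay on chromosome 11 and its start was within 2.5 Mb of the start of Mir21a (mm10, positions 84084067 to 89084067). The rule uses position alone, though the window was proposed with earlier results of these data known. The set held 72 of the 22956 rows, and by the GENCODE M21 annotation of the same assembly 52 of them were protein coding, 7 antisense RNAs, 4 processed pseudogenes, 3 small nucleolar RNAs, 3 long intergenic RNAs, 2 processed transcripts and 1 unclassified. Of the 72, 59 had at least 10 estimated counts in at least 3 libraries and were tested, together with 17354 rows from outside the window. Of the 13 left untested, 4 were protein coding (Tbx4, Tex14, Hsf5 and Rnf43) and 9 were not (Gm37391, 4930502E09Rik, Appbp2os, Bcas3os1, Gm11491, Rnu3b2, Gm11507, Gm15892 and Gm15893), and no library held more than 21 counts of any of them. Tspoap1 was the 1 tested gene that passed this minimum through the knockout libraries alone, and 0 passed it through the WT libraries alone.

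The knockout group was 3 samples from mice labelled miR-21fl/flmTmG/Myh11ERT2, whose floxed miR-21 can be removed by Cre. The WT group was 3 samples labelled WT/mTmG/ Myh11ERT2. Both groups therefore carried Myh11ERT2, an inducible Cre under the promoter of the smooth muscle myosin gene Myh11, and mTmG, a reporter that changes colour where Cre has acted. Mice of both groups had the strain label C57B6, were 30 weeks old and had eaten a western diet, a fatty feed used to bring on atherosclerosis, for 20 weeks. Cre from this driver acts in cells that use the Myh11 promoter, so other cells of the aorta keep the floxed allele. The labels do not state whether Cre was induced in both groups, whether mice were pooled, or whether the replicates were separate animals, so p-values measure the spread between these samples, which may be technical.

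miR-21 belongs to the microRNAs, small RNAs that reduce the messages they pair with, mostly through a short seed near their own 5′ end and a match in the target's 3′ untranslated region (UTR). Its hairpin sits within the last exon of Vmp1, so the gene lies in a stretch of chromosome shared with many unrelated neighbours: clathrin heavy chain, a ribosomal protein kinase, transcription and splicing factors, mitochondrial proteins and enzymes of the lysosome. Deleting a small gene by recombination is meant to leave such neighbours in place. In crosses, DNA beside a targeted allele is inherited with it, and the closer it lies the more often. The labels name C57B6 for both groups and do not give the strain in which the floxed allele was made. The comparison therefore asks whether messages of genes beside Mir21a differ between the groups, and at which distance from it.

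The hairpin, printed with its 2 mature arms in capitals, spans chromosome 11, 86584067 to 86584158 on the minus strand (RefSeq, GRCm38.p6), and 92 of its bases are shared with the last exon of Vmp1. The mature strand miR-21a-5p follows with its seed, bases 2 to 8, in capitals. The other lines are the 5 places in 3′ UTRs of these neighbours (GENCODE M21, each shown 5′ to 3′ on the strand of its gene) that hold ATAAGCT, the complement of that seed, in capitals. They are shown because a direct target would carry such a match.
Mir21a hairpin: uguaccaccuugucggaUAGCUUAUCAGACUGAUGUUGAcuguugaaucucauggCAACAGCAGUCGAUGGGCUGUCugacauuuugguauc
miR-21a-5p: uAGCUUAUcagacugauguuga
Brip1: agactcactgctgaATAAGCTcacc
Ints2: cttaagttaaggttATAAGCTttgt
Mrm1: tgctggaacacctaATAAGCTttaa
Ptrh2: ATAAGCTtttg
Tbx2: ggtaatttgtgtaaATAAGCTttaa

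These 5 genes were 10.4% of the 48 tested neighbours whose 3′ UTR reached 8 bases, against 979 genes, or 7.27%, of all 13472 such genes tested. The longer match ATAAGCTA, with an A after the seed match, was in 0 of the neighbours and in 289 genes of the whole table. A match of letters is a description and no evidence of pairing.

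No row for Mir21a is used here, so the loss of the microRNA could not be checked in its own counts. Library totals were 37787458 to 72277245 estimated counts in the knockout and 37996239 to 154384400 in WT. The window took between 0.215% and 0.227% of the counts in knockout libraries and between 0.21% and 0.227% in WT libraries. Among markers of the labelled cell, 8 smooth muscle genes summed to 28486 to 37697 CPM (CPM being counts scaled to library size with edgeR's TMM factors) in the knockout and to 23979 to 36660 CPM in WT, all 8 with positive fold changes and 1 of them at an unadjusted p under 0.05. The 8 fibroblast markers were abundant too, with 6404 to 15195 CPM in the knockout and 9646 to 17406 CPM in WT, and 7 of the 8 had negative fold changes with 0 at an unadjusted p under 0.05. Endothelial markers summed to 59.7 to 71.3 CPM in the knockout and 60.7 to 65.1 CPM in WT. Most of this was Pecam1, with means of 59.4 CPM in the knockout and 59.2 CPM in WT. All 6 tested endothelial markers had positive fold changes, with 0 at an unadjusted p under 0.05. Macrophage markers summed to 6.35 to 28.6 CPM in the knockout and 7.91 to 29.5 CPM in WT. Of 7 tested, 6 had positive and 1 a negative fold change, with 0 at such a p. Cardiac muscle markers summed to 11.5 to 35.2 CPM in the knockout and 15.6 to 25.9 CPM in WT, with 2 of 4 tested genes higher at an unadjusted p under 0.05, and their part in the results was not tested. Over all tested rows, 3.8% were higher and 2% lower at such a p. Granulocyte markers, of which 5 of 9 have a row, summed to at most 0.083 CPM in the knockout and 0.162 CPM in WT, and 2 of the 5 were at 0 in every library. In bulk samples, fewer cells of a type and less RNA per cell cannot be told apart.

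Across the window, genes on the side of Mir21a with lower coordinates had small fold changes, and those with p under 0.05 all lay on the side with higher coordinates. With edgeR's quasi-likelihood test over all 17413 rows, 0 neighbours had a Benjamini-Hochberg adjusted p under 0.05, the smallest being 0.233, and 0 rows of the whole table passed (0%). DESeq2's Wald test, on the same counts, called 3 neighbours, Tspoap1, Mrps23 and Scpep1, where it called 70 rows, or 0.402%, of the table. Without adjustment, edgeR's p was under 0.05 in 8 of the 59 neighbours (13.6%), against 5.79% of all rows. They were 3 higher in the knockout (Tspoap1, Cuedc1 and C030037D09Rik), where 3.8% of all rows were, and 5 lower (Mrps23, Scpep1, Elobl, Ptrh2 and Dgke), where 2% of all rows were. Such a p is a way to describe the genes, not a call that survives correction over the table. Tspoap1 passed the count minimum only through the knockout, where it is high, and without it the counts were 7 of 58 (12.1%), 2 higher and 5 lower, with 2 neighbours called by DESeq2. The 5 lower genes were 3 when either knockout 2 or WT 1 was left out. Over all rows, p was then under 0.05 in 3.48% and 5.63%, in either direction.

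The neighbours as a body were centred close to 0. Their median log2 fold change, knockout over WT, was 0.007, against -0.005 over all rows and -0.015 over the 1261 other tested rows of chromosome 11. Fold changes were positive in 31 neighbours and negative in 28. Their median size regardless of sign was 0.134, against 0.120 for all rows, and 38 of the 59 stayed under 0.2. The median of the neighbours without WT 1 was 0.038, and it ranged over 0.002 to 0.038 when each library was left out.

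**Figure D1:**
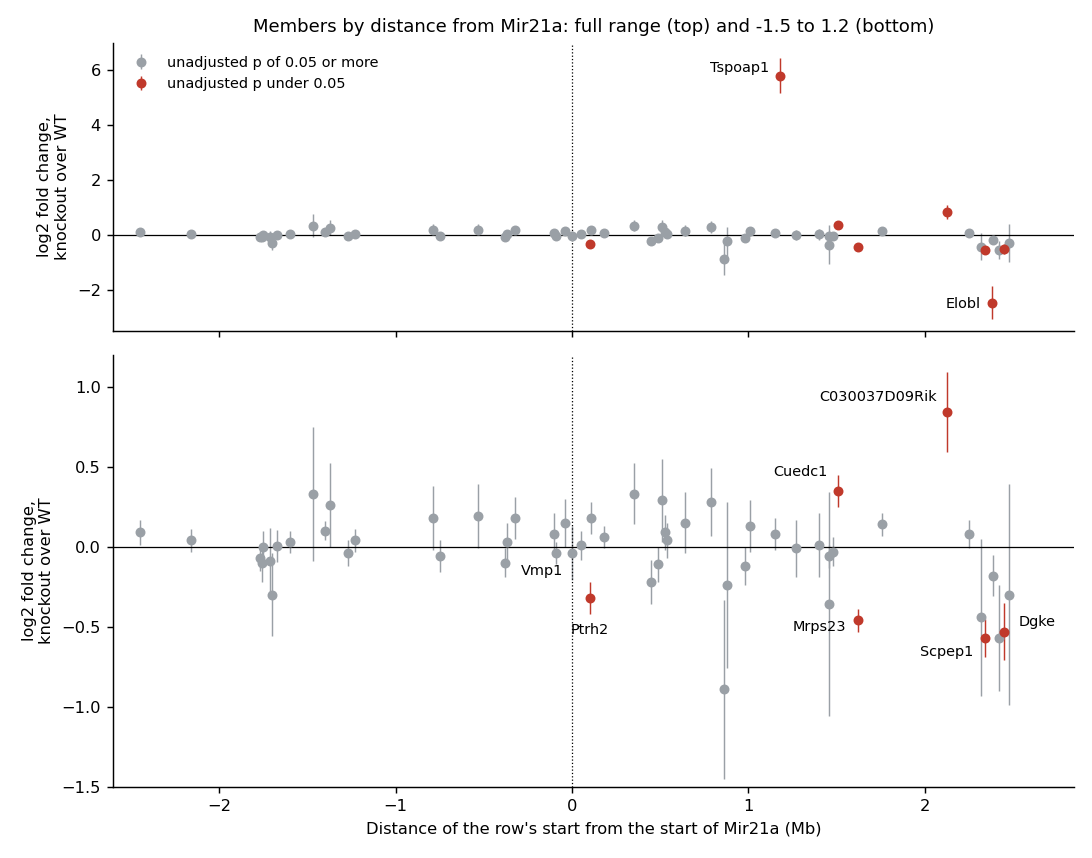
Each point is 1 of the 59 tested neighbours at the distance of its start from the start of Mir21a (Mb, negative for lower coordinates), with its log2 fold change, knockout over WT, and SE; the top panel has the full range and the bottom panel is enlarged. Red marks an unadjusted p under 0.05: all 8 such genes lie at higher coordinates, and 7 of them 1 Mb or more away. Without Tspoap1, which passed the count minimum only through the knockout, these are 7 and 6.

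The size of the fold changes varied with side and distance. On the side of lower coordinates, 0 of 24 tested genes reached an unadjusted p under 0.05, fold changes ran from -0.30 to 0.33, and their median size was 0.082. On the side of higher coordinates 8 of 35 did (22.9%), with a median size of 0.220. There, 1 of 15 genes closer than 1 Mb had such a p (6.67%) and 7 of 20 at 1 Mb or more (35.0%). Without Tspoap1 these were 7 of 34 on the side of higher coordinates (20.6%) and 6 of 19 at 1 Mb or more (31.6%). In steps of 0.5 Mb from Mir21a towards higher coordinates, the counts were 1 of 7, 0 of 8, 1 of 8, 2 of 3 and 4 of 9 genes, so the outer steps rest on few genes. The side of higher coordinates gave 6 to 9 such genes when each library was left out, and the side of lower coordinates 0 or 1. The share over all rows moved as well, from 3.48% without knockout 2 to 9.94% without knockout 1. No test was made of the difference between the sides. Across the 59 genes, which share the same 6 libraries, Spearman's rho between distance and the size of the log2 fold change was 0.23, with 0.37 over the 35 genes of higher coordinates and -0.02 over the 24 of lower coordinates. Without WT 2 the rho over all 59 was 0.05.

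In 7 of the 59 neighbours every knockout library lay above every WT library, against 6.38% of all rows. In 4 of the 59 every knockout library lay below, a share close to the 5.66% of all rows. The 7 were Tspoap1, Cuedc1, C030037D09Rik, Cltc, Rad51c, Akirin1-ps and 2610027K06Rik, and the 4 were Mrps23, Scpep1, Elobl and Ptrh2. Of these, Tspoap1 passed the count minimum only through the knockout. Fewer libraries make such separation easier, and with 1 left out the counts were up to 12 (without knockout 1) and 11 (without WT 1) for the higher ones. For the lower ones they were 9 without knockout 1, 7 without knockout 3, and 8 without WT 1 or WT 3. The share over all rows is not given with a library left out, so these counts stand without a comparison.

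**Figure D2:**
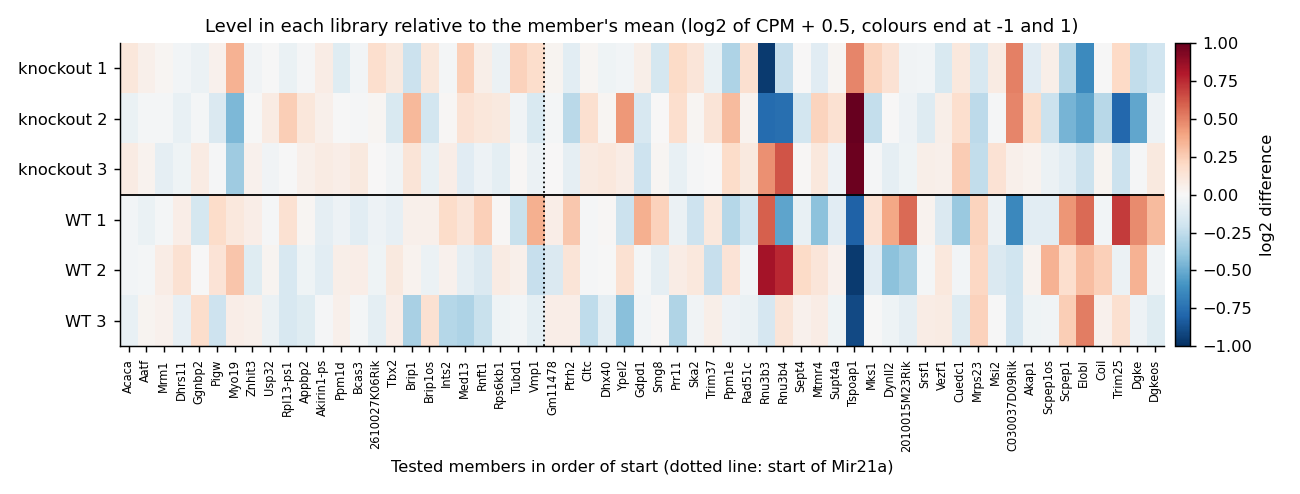
Rows are the 3 knockout libraries above the 3 WT libraries, columns the 59 tested neighbours in order of start, and colour gives log2 of CPM + 0.5 minus the gene's mean over the 6 libraries, with colours ending at -1 and 1. Tspoap1 is red in every knockout library and blue in every WT library, Elobl the reverse, and most columns left of the dotted line at Mir21a are pale.

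In the genes that touch Mir21a or lie nearest to it, log2 fold changes ran from -0.32 (Ptrh2) to 0.33 (Ypel2). Vmp1, a membrane protein needed to form autophagosomes, has its lower end 202 bases below that of Mir21a and runs from 86583865 to 86683836 on the minus strand. It had 77.3, 61.3 and 65.5 CPM in knockout 1, 2 and 3, against 87.4, 58.2 and 63.7 CPM in WT 1, 2 and 3. The groups overlapped widely, replicate 1 being the highest of both. Its log2 fold change was -0.04 ± 0.17 (SE), with a 95% interval of -0.43 to 0.36, and it became 0.16 without WT 1. Counts over the whole of Vmp1 say nothing on the small stretch that holds the microRNA.

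Of the other 9 nearest genes, 4 at lower and 5 at higher coordinates, only Ptrh2 had a p under 0.05. Tubd1, which encodes delta-tubulin, had a log2 fold change of 0.15 ± 0.15. Rps6kb1, the S6 kinase that carries the growth signal of mTOR to the ribosome, had 39.9 ± 2.9 CPM in the knockout and 40.9 ± 1.8 CPM in WT (SD, n = 3 each), or -0.04 ± 0.07 as a log2 fold change. Rnft1, a ubiquitin ligase of the endoplasmic reticulum, had 0.08 ± 0.13, and Med13, a subunit of the Mediator complex of transcription, 0.18 ± 0.13. At higher coordinates, Gm11478, a pseudogene within the span of Vmp1, had 0.01 ± 0.09, the helicase gene Dhx40 0.06 ± 0.07 and Ypel2 0.33 ± 0.19. The 14 tested genes within 0.5 Mb had a median log2 fold change of 0.019.

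Cltc, the heavy chain that forms the clathrin coat of endocytic vesicles, was the most abundant neighbour in the knockout per kilobase of exon. It lies 0.11 Mb from Mir21a and had 715, 788 and 751 CPM in the knockout libraries, against 699.7, 699.5 and 591 CPM in the WT libraries. All knockout libraries were above all WT libraries, by a small step. The log2 fold change was 0.18 ± 0.10, with a 95% interval of -0.05 to 0.41 that includes 0.

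Ptrh2, a mitochondrial peptidyl-tRNA hydrolase also known for a part in cell death on loss of attachment, lies 0.10 Mb from Mir21a. It had 9.27, 8.21 and 9.36 CPM in the knockout libraries, against 12.2, 10.9 and 10.5 CPM in the WT libraries. The groups did not overlap, and the gene was lower in the knockout. It carries 1 of the seed matches printed above, at the very start of its 3′ UTR with no UTR base before it. Its log2 fold change was -0.32 ± 0.10 (edgeR adjusted p = 0.822). Its unadjusted p was no longer under 0.05 without knockout 2 or without WT 1. The other 4 genes with a match had log2 fold changes of 0.19 ± 0.20 (Brip1, a helicase of DNA repair), 0.03 ± 0.12 (Ints2, of the Integrator complex), -0.07 ± 0.08 (Mrm1, a methylase of mitochondrial ribosomal RNA) and -0.06 ± 0.10 (Tbx2, a developmental T-box factor). All 979 genes with a match had a median of 0.049.

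Among the genes of membrane traffic and the lysosome, 2 of 10 were higher and 1 lower at p under 0.05, where 3.8% and 2% of all rows were. The 2 include Tspoap1, which passed the count minimum only through the knockout. Tspoap1, whose protein binds the translocator protein TSPO of mitochondria and scaffolds calcium channels in nerve endings, lies at 87760541 to 87785928 on the plus strand, 1.18 Mb from Mir21a. It had 0.86, 1.71 and 1.41 CPM in the knockout libraries, against 0.053, 0 and 0.0195 CPM in the WT libraries. The knockout libraries held at least 32 counts each, and the WT libraries 2, 0 and 3, so the message was barely detected in WT even in its deepest library. The means were 1.33 ± 0.433 CPM in the knockout and 0.0242 ± 0.0268 CPM in WT (SD, n = 3 each). The log2 fold change was 5.80 ± 0.63. Since the row entered the test only through the libraries where it is high, it had to differ, and its p and SE are given no weight. The ratio of pooled counts, 209 in the knockout over 5 in WT and scaled for depth, was 63.2, which describes these libraries and is no test. Under the 15 alternatives that kept the row the log2 fold change was 5.49 to 6.33, a range with the same limit. The row was lost when at least 1 CPM in 3 libraries was asked. No other row of the table shares an exon with Tspoap1.

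Cuedc1, which encodes a protein with a ubiquitin-binding CUE domain, lies 1.51 Mb away at 88098058 to 88194140. It had 79, 82.7 and 87.8 CPM in the knockout libraries, against 56.7, 72.1 and 67.1 CPM in the WT libraries. Each knockout library exceeded each WT library. The log2 fold change was 0.35 ± 0.10 (edgeR adjusted p = 0.799), between 0.26 and 0.43 under 16 alternatives, all with p under 0.05. The other genes of this list that have not been described were Appbp2, which binds the amyloid precursor protein, with 0.10 ± 0.06, the dynein light chain gene Dynll2 with 0.01 ± 0.20, the septin gene Sept4 with -0.12 ± 0.12 and Pigw, of the synthesis of membrane anchors, with -0.09 ± 0.21.

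Scpep1, a serine carboxypeptidase of the lysosome that has been studied in growth and remodelling of vascular smooth muscle, lies 2.34 Mb from Mir21a at 88924020 to 88955465 on the minus strand. It had 145, 128 and 164 CPM in the knockout libraries, against 240.2, 198 and 209.5 CPM in the WT libraries. No knockout library reached the lowest WT library. The means were 146 ± 18.2 CPM in the knockout and 216 ± 21.8 CPM in WT (SD, n = 3 each). On the log2 scale the fold change was -0.57 ± 0.12 (edgeR adjusted p = 0.676; DESeq2 adjusted p = 0.00557, range over the alternatives 0.00557 to 1). It lay between -0.66 and -0.48 under 16 alternatives, with p under 0.05 in each. Per kilobase of exon, Scpep1 had 69.5 ± 8.69 CPM in the knockout and 103 ± 10.4 CPM in WT, and Cltc 88.4 ± 4.3 CPM in the knockout and 78.1 ± 7.38 CPM in WT, so Scpep1 stood below Cltc in the knockout and above it in WT. Next in that order came Vezf1, a zinc finger factor of vessel development, with 29.6 ± 2.35 CPM per kilobase in the knockout and 30.2 ± 2.79 in WT, a difference within the spread. The antisense row Scpep1os shares 96 exonic bases with Scpep1, whose exons cover 2.1 kb. The strand used in counting is not given in the sources used here, so reads from the shared bases cannot be told apart. Scpep1os itself had 0.269, 0.137 and 0.208 CPM in the knockout libraries, against 0.185, 0.441 and 0.221 CPM in the WT libraries.

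**Figure D3:**
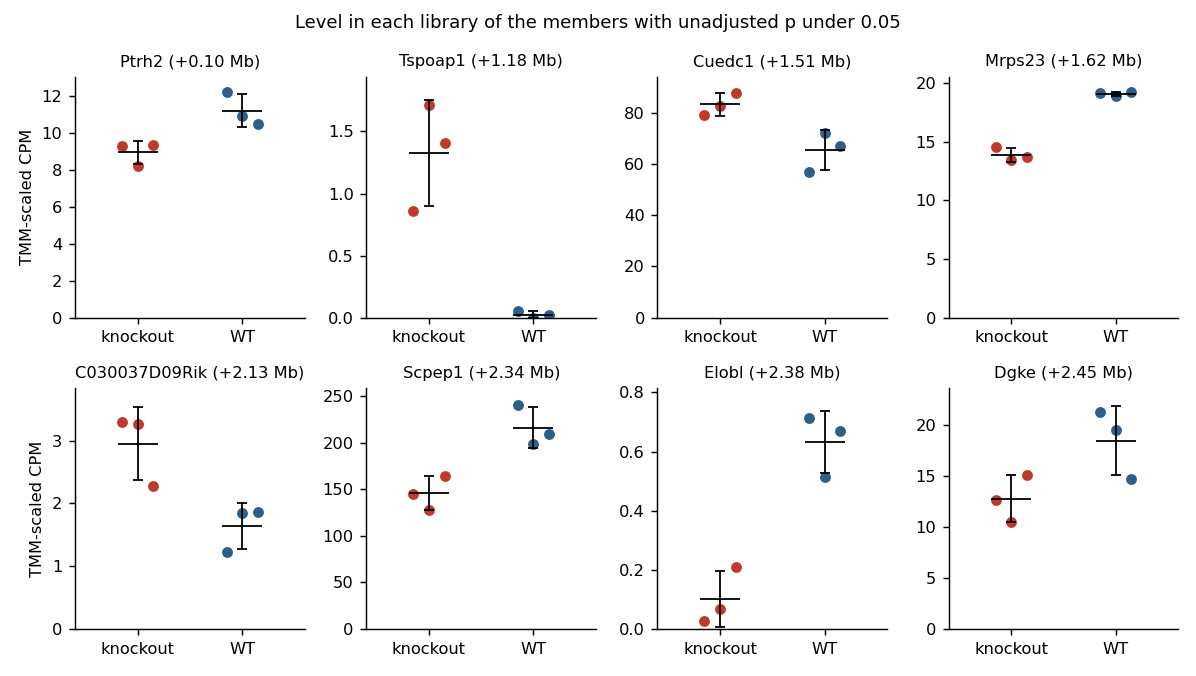
Panels give the TMM-scaled CPM of the 8 neighbours with an unadjusted p under 0.05 in each knockout library (left, red) and each WT library (right, blue), with the distance from Mir21a in the title; bars are the mean and SD of 3 libraries, and every axis starts at 0. The groups do not overlap in any panel except that of Dgke.

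The list of mitochondrial proteins held 2 of 7 genes that were lower at p under 0.05, Ptrh2 and Mrps23, and 0 that were higher. Over all rows 2% were lower and 3.8% higher. Mrps23, a protein of the small subunit of the mitochondrial ribosome, lies 1.62 Mb from Mir21a at 88204388 to 88211507 on the plus strand. It had 14.5, 13.4 and 13.7 CPM in the knockout libraries, against 19.1, 18.9 and 19.2 CPM in the WT libraries. The groups stood well apart, and libraries within each were close together. The log2 fold change was -0.46 ± 0.07 (edgeR adjusted p = 0.406; DESeq2 adjusted p = 9.2e-04, range over the alternatives 9.2e-04 to 1), and it stayed between -0.49 and -0.43 under 16 alternatives with p under 0.05 in each. The other 5 of the list had -0.30 ± 0.26 (Myo19, a myosin that moves mitochondria), -0.10 ± 0.12 (Dhrs11), -0.07 ± 0.08 (Mrm1), 0.09 ± 0.08 (Acaca, the acetyl-CoA carboxylase of fatty acid synthesis, an enzyme of the cytosol) and 0.08 ± 0.09 (Akap1, an anchor for protein kinase A on the outer membrane). Acaca and Aatf are the first tested genes inside the lower edge, and Aatf, a factor of transcription and survival, had 0.04 ± 0.07.

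Elobl, a gene similar to Elob, which encodes elongin B, lies 2.38 Mb from Mir21a at 88964658 to 88966931 on the minus strand. It had 1, 3 and 15 counts in the knockout libraries, against 27, 21 and 103 counts in the WT libraries, or 0.0269, 0.0686 and 0.208 CPM against 0.715, 0.514 and 0.669 CPM. Every knockout library was lower than every WT library, at a level where few reads decide each value. The log2 fold change was -2.47 ± 0.59 (edgeR adjusted p = 0.78; DESeq2 adjusted p = 0.101, range over the alternatives 0.101 to 1). It was -3.64 without knockout 3 and -2.10 without knockout 1, the ends of its range. The ratio of pooled counts was 0.19 (exact 95% interval 0.111 to 0.307, counting error only). Its transcript of 819 bases is 82.6% identical to that of Elob over 265 aligned bases. Whether reads of that paralog enter its estimated counts was not tested, and the value is uncertain.

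Signalling genes held 1 lower gene of 7, where 2% of all rows were lower, and it was Dgke, the diacylglycerol kinase epsilon. Dgke lies at the upper edge of the window, 2.45 Mb away, and had 12.7, 10.5 and 15.1 CPM in the knockout libraries, against 21.3, 19.5 and 14.7 CPM in the WT libraries. The groups overlapped, knockout 3 lying above WT 3. The log2 fold change was -0.53 ± 0.18 (edgeR adjusted p = 0.828), and p was under 0.05 in 10 of 16 alternatives and not in the rest, which were limma-voom weights, the replicate block and leaving out knockout 1, knockout 2, WT 1 or WT 2. Dgkeos, which shares 100 exonic bases with it on the other strand, had -0.30 ± 0.69 and turned to 0.32 without WT 1. The phosphatase genes Ppm1d, Ppm1e and Mtmr4 had -0.04 ± 0.08, 0.15 ± 0.19 and 0.13 ± 0.16.

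C030037D09Rik, a long intergenic RNA 2.13 Mb away at 88718645 to 88728893, is named because it was 1 of the 3 higher genes, after its values were seen. It had 3.3, 3.27 and 2.28 CPM in the knockout libraries, against 1.22, 1.84 and 1.86 CPM in the WT libraries. The groups did not overlap. Its log2 fold change was 0.84 ± 0.25 (edgeR adjusted p = 0.799). Msi2, an RNA-binding protein gene on the opposite strand just before it, had 0.14 ± 0.07.

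Genes of RNA synthesis and processing held 0 of 14 with p under 0.05, where 5.79% of all rows had such a p. The median of their log2 fold changes was 0.016. Vezf1 had -0.03 ± 0.09, the splicing factor gene Srsf1 -0.06 ± 0.07, Ggnbp2 -0.0001 ± 0.10 and Coil, whose protein builds Cajal bodies, -0.18 ± 0.13. Ubiquitin ligases and proteases held 0 of 5, among them the deubiquitinase gene Usp32 with 0.03 ± 0.07, Trim37 with 0.04 ± 0.11 and Trim25, a ligase of antiviral signalling, with -0.57 ± 0.33. Trim25 had 5.4, 2.47 and 3.92 CPM in the knockout libraries, against 7.84, 4.41 and 5.22 CPM in the WT libraries, and the groups overlapped. Genes of cell division and DNA repair held 0 of 7, with a median of 0.148, among them Rad51c, a factor of recombination, with 0.28 ± 0.21. Of the 2 tested developmental genes, Tbx2 had -0.06 ± 0.10 and Bcas3, a cytoskeletal gene of vessel growth, 0.04 ± 0.07. The small nucleolar RNA row Rnu3b3 had 0.806, 0.983 and 2.98 CPM in the knockout libraries, against 3.34, 3.99 and 1.75 CPM in the WT libraries, and it has near-identical copies in the window, so its counts are uncertain. Exonic bases are shared with another row of the table in 18 of the 72 members. Among them is Brip1os, which shares 800 with Med13 and 512 with Ints2 on the opposite strand. Reads from such shared bases cannot be told apart without the strand of counting.

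Of the 9 tested genes at 2 Mb or more towards higher coordinates, 7 had negative fold changes, 3 were lower and 1 higher at p under 0.05, and the median of the 9 was -0.441 on the log2 scale. This step was singled out after its values were seen and was not tested. Over all rows 2% were lower, Dgke is 1 of the 3, and the next 2.5 Mb held 4 higher and 1 lower. The 7 are neighbours of each other from Scpep1os to Dgkeos, and some share exonic bases. The promoters of the 3 lower genes with the smallest p at 1.5 Mb or more are printed, because the genes differ in what the promoter holds as well as in level. Each runs from 250 bases before to 50 after the start (RefSeq, GRCm38.p6, 5′ to 3′ on the gene's strand), with CG pairs in capitals.
Scpep1, chr11:88955393-88955692, minus strand: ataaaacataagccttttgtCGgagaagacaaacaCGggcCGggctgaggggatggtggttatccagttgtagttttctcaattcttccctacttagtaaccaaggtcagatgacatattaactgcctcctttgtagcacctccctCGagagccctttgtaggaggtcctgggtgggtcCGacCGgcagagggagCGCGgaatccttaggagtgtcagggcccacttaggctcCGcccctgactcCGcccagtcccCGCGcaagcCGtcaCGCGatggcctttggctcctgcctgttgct
Mrps23, chr11:88204138-88204437, plus strand: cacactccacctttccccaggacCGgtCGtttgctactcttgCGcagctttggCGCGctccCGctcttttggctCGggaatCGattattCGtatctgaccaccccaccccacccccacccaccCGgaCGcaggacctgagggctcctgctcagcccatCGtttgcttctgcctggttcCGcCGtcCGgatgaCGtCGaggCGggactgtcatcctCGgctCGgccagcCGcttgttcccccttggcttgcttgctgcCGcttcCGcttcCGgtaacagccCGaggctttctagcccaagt
Elobl, chr11:88966882-88967181, minus strand: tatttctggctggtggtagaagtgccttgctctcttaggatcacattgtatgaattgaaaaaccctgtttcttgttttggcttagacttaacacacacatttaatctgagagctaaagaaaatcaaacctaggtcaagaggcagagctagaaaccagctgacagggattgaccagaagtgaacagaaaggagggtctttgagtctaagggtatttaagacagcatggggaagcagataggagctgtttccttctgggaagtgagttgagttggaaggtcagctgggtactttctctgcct

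The motif CG, which reads the same on both strands, was counted. There were 15 CG pairs in the window of Scpep1, 25 in that of Mrps23 and 0 in that of Elobl. Of the 44 tested neighbours with a promoter in the table, 40 (90.9%) held at least 10, with a median of 26, and Elobl was the 1 gene with 0. Over all 11116 tested genes with a promoter, 80.1% held at least 10, with a median of 20.0, and 73 had 0. These letters describe the reference and say nothing of methylation or binding in these samples.

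The pathways of the lower and nearby members were read from lists of their known partners. In the small subunit of the mitochondrial ribosome, 0 of 30 tested genes were higher and 1 was lower at p under 0.05. That gene was Mrps23, for which the list was made, so its place among the lower was fixed and says nothing of the list. The other 29 had a p of 0.05 or more, where 2% of all rows were lower. With Mrps23 included, the lower were 4 without WT 1, 2 without knockout 1 and 3 when 1 surrogate variable was fitted. In these fits 5.63%, 9.94% and 7.75% of all rows had p under 0.05, in either direction. The median log2 fold change was -0.078, against -0.005 for all rows, and 26 of the 30 were negative. Next to Mrps23 came Mrps10 with -0.19 ± 0.10 and Mrps2 with -0.15 ± 0.08. Under the alternatives 22 to 27 of the 30 were negative, the fewest without WT 2.

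Of 15 lysosomal proteases, 0 were higher and 2 lower at p under 0.05, Scpep1 and the legumain gene Lgmn, where 2% of all rows were lower. The list was made for Scpep1, so its place among the lower was fixed, and Lgmn was the only other. The 2 lower became 1 without knockout 2, knockout 3 or WT 3, where 3.48%, 3.85% and 4.25% of all rows had p under 0.05. They became 3 without knockout 1 or WT 2, where 9.94% and 8.05% of all rows did. Lgmn had 129, 101 and 116 CPM in the knockout libraries, against 144, 132 and 140.5 CPM in the WT libraries, with no overlap. All 15 had negative fold changes and the median was -0.168, but it was -0.081 with 13 negative without WT 1, and -0.076 with 11 negative when 1 surrogate variable was fitted. Ctsa, which encodes cathepsin A, a serine carboxypeptidase like Scpep1, had -0.03 ± 0.07. The 8 fibroblast markers had a median log2 fold change of -0.427 with overlapping sums, given above, and their part in these values was not tested.

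**Figure D4:**
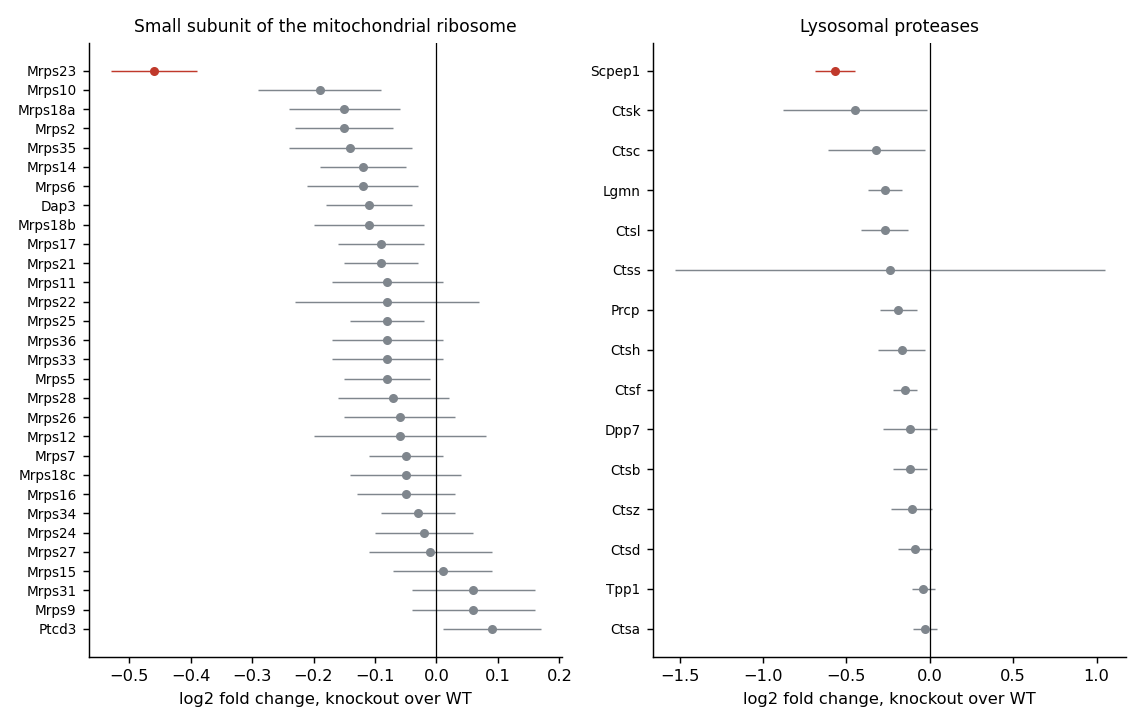
Log2 fold changes, knockout over WT, with SE, for 30 genes of the small mitochondrial ribosomal subunit (left) and 15 lysosomal proteases (right), ordered by value from top to bottom. The neighbours of Mir21a are red: Mrps23 at -0.46 and Scpep1 at -0.57 are the lowest of their lists. Each list was made for its red gene, which was already known to be lower, so that rank is no separate result.

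For the neighbour Rps6kb1, 18 genes of the mTOR and S6 kinase pathway were tested, of which 5 were higher and 1 lower at p under 0.05, with a median of 0.022. The higher ones were Mtor, the kinase itself, with 0.33 ± 0.07, Pdpk1 with 0.24 ± 0.06, Tsc1, Rptor and Eif4ebp2, and the lower one was Deptor, an inhibitor of mTOR, with -0.45 ± 0.16. Over all rows 3.8% were higher and 2% lower at such a p. With each library left out, 3.48% to 9.94% of all rows had such a p, in either direction. The 5 higher were 3 without knockout 1, 2 or 3, WT 2 or WT 3, the 1 lower was 0 without knockout 2, knockout 3, WT 1 or WT 3, and the median was -0.003 without WT 1. For Cltc, 1 of 17 genes of the clathrin coat and its adaptors was higher, Hip1 with 0.33 ± 0.07, and 0 were lower, with a median of 0.015. The higher were 2 without knockout 1 or WT 2, the lower 2 without knockout 1, and the median was -0.005 without knockout 3 and -0.006 without WT 1. For Vmp1, 2 of 26 autophagy genes were higher, Atg2b and Ulk1, and 2 lower, Tmem41b and Gabarapl2, with a median of -0.009. Neither count held: with a library left out there were 0 or 1 higher and 0 or 1 lower, 0 of both without knockout 2, and the median was 0.038 without knockout 1, 0.013 without WT 2 and 0.017 without WT 3. None of these partners had an adjusted edgeR p under 0.05, while DESeq2 gave Hip1 an adjusted p of 0.00537, in a range of 0.00537 to 1 over the alternatives.

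Just beyond the window the counts of the sides were also unequal. From 2.5 to 5 Mb, 5 of 11 tested genes at higher coordinates had an unadjusted p under 0.05 (45.5%), against 1 of 34 at lower coordinates (2.94%). The 5 were Nog, Pctp, Gm45716, Mmd and Stxbp4, 4 higher and 1 lower in the knockout, and the count was 1 without knockout 2, WT 1 or WT 3, 2 without knockout 1 and 3 without knockout 3 or WT 2. The share over all rows was 3.48% without knockout 2 and 9.94% without knockout 1, the ends of its range. Nog, an inhibitor of bone morphogenetic proteins and the first tested gene outside the upper edge, had 1.1, 0.366 and 0.499 CPM in the knockout libraries, against 0.397, 0.22 and 0.201 CPM in the WT libraries. Knockout 2 lay below WT 1, so the groups overlapped. Pctp, a carrier of phosphatidylcholine, had 1.02, 1.23 and 1.52 CPM in the knockout libraries, against 1.96, 2.45 and 1.65 CPM in the WT libraries, with no overlap. At the other edge, Dusp14 and Tada2a had -0.09 ± 0.14 and -0.01 ± 0.14. Farther along higher coordinates the shares were 2 of 8 at 5 to 7.5 Mb, 1 of 48 at 7.5 to 10 Mb, 7 of 66 (10.6%) at 10 to 12.5 Mb, 0 of 67 at 12.5 to 15 Mb, 9 of 51 (17.6%) at 15 to 17.5 Mb and 4 of 32 (12.5%) at 17.5 to 20 Mb. The rest of chromosome 11 had 90 of 1261 (7.14%).

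**Figure D5:**
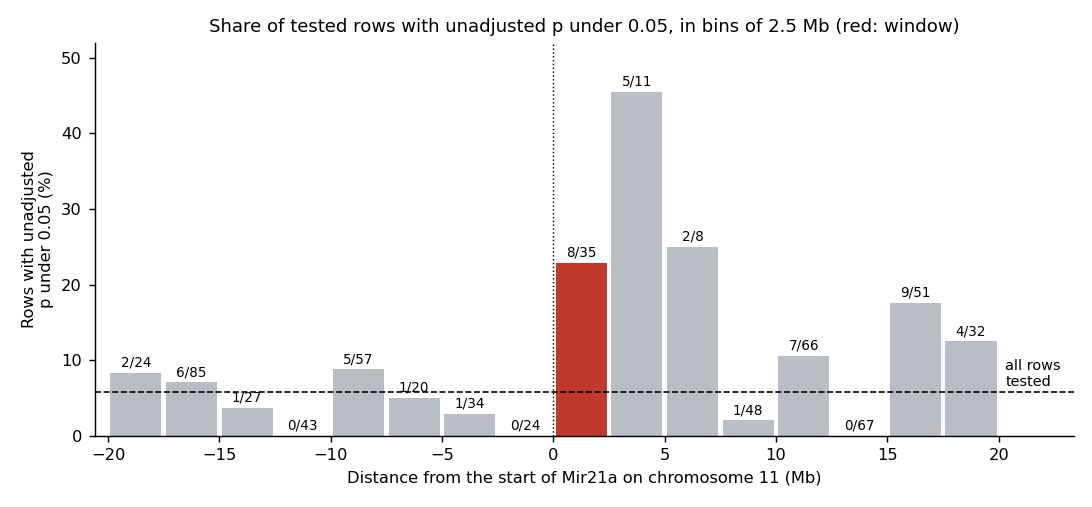
Bars give the share (%) of tested rows of chromosome 11 with an unadjusted p under 0.05 in bins of 2.5 Mb from the start of Mir21a (Mb, negative for lower coordinates), with the counts above them; the dashed line is the share over all rows tested, 5.79%. The window's bar at higher coordinates (red, 8 of 35, or 7 of 34 without Tspoap1) and the next (5 of 11) stand above the line, the window's bar at lower coordinates is 0 of 24, and some bins hold under 20 genes.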

How the data were processed

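RNA was measured in 6 libraries, 3 per group. Trizol was used for total RNA and an Illumina TruSeq kit for the libraries, per the labels. The values the authors deposited are estimated counts by gene, not normalized, in a single table. STAR 2.6, DESeq2 and the build mm10 are named, with no role, per the submitters' processing notes. Which tool, annotation and strand setting gave the counts is not given in the sources used here. Columns were assigned by the sample code in their names, with 0 left over.

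The expected counts as deposited were rounded to whole numbers. Rows with at least 10 counts in at least 3 libraries were scaled by TMM and tested, knockout against WT, in edgeR 4.0.16 (R 4.3.3) by a two-sided quasi-likelihood F test with robust dispersions, and p-values were adjusted by Benjamini-Hochberg over all 17413 rows. SE and 95% intervals are from this fit and cover the spread between 6 libraries. In simulated data, an adjusted p under 0.05 recovered 23.9% of 1.5-fold, 65.7% of 2-fold and 95.5% of 4-fold changes, with 14 false calls. Most small changes would therefore be missed, and the lack of a call does not show that a gene is unchanged. Rows were matched to GENCODE M21 (21548 by position, 1347 by symbol, 61 unmatched). The table has 23 symbols turned into dates, of which Sept4 was named by position.

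The members and gene lists were chosen with earlier results of these data known. Named genes were Vmp1, the 5 nearest per side, members with p under 0.05, edge genes, the 3 most abundant per role and up to 3 per pathway by p; Mir21a was not analysed here, and other members named were chosen after their values were seen. Counts and intervals of pooled counts used scipy 1.17.1. Replicate pairs differed beyond counting noise, with a mean chi-square per gene of 30 to 105. Alternatives were other scaling, filters and windows, DESeq2 1.42.0, voom weights of limma 3.58.1, a replicate block, thinning, 1 surrogate variable (sva 3.50.0) and leaving out each library; rank correlations by side and counts without Tspoap1 were added after seeing the data.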

Additional observations from a re-analysis of the deposited data

How the results depend on the processing

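At an unadjusted p under 0.05, 3 of 59 neighbours were higher and 5 lower. In a window of 1 Mb either side these became 0 and 1 of 25 (4%), with a median of 0.037. A window of 5 Mb either side gave 7 higher and 7 lower of 104 (13.5%). Over all rows the share was 5.79%. DESeq2's Wald test called 3 neighbours and 70 rows at an adjusted p under 0.05, where edgeR called 0 and 0. Leaving out Tspoap1 was a choice made after seeing the data. DESeq2 then called 2 neighbours, Mrps23 and Scpep1, each lower in the knockout. By edgeR's unadjusted p under 0.05, 2 of 58 were then higher and 5 lower, where 3.8% and 2% of all rows were. DESeq2's log2 fold changes were 5.93 for Tspoap1, -0.46 for Mrps23, -0.57 for Scpep1 and 0.33 for Hip1. Spearman's rho between distance and size was 0.11 with at least 1 CPM in 3 libraries, 0.37 for higher and -0.02 for lower coordinates alone, these by side chosen after seeing the data.

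With each library left out, the higher neighbours numbered 3 to 4 and the lower 3 to 6, called rows overall 0 to 1, the median 0.002 to 0.038, the median within 0.5 Mb -0.028 to 0.074, rho 0.05 to 0.30, and neighbours without overlap 8 to 12 (higher) and 5 to 9 (lower). The share of all rows with p under 0.05 was 3.48% to 9.94% in the same fits. For the counts without overlap no share over all rows is given. The fold changes of 34 of 48 named genes kept their sign under every alternative. Of the 14 that turned, Vmp1 reached 0.13 with 1 surrogate variable, Gm11478 -0.02 and Dgkeos 0.30 with voom weights. Ggnbp2, at -0.0001, was 0.0024 with DESeq2 size factors, 0.0001 unfiltered, 0.0030 with filterByExpr, 0.0049 with the 1 CPM filter, 0.0020 with DESeq2 and 0.0006 thinned. With each library left out, ranges that crossed 0 were -0.14 to 0.16 for Vmp1, -0.09 to 0.0033 for Rps6kb1, -0.01 to 0.23 for Rnft1, -0.05 to 0.04 for Gm11478, -0.82 to 0.32 for Dgkeos, -0.22 to 0.06 for Dusp14, -0.14 to 0.07 for Tada2a, -0.10 to 0.03 for Vezf1, -0.08 to 0.09 for Ggnbp2, -0.0046 to 0.09 for Bcas3, -0.13 to 0.0034 for Tbx2, -0.02 to 0.23 for Mtmr4, -0.06 to 0.10 for Trim37 and -0.08 to 0.01 for Ppm1d. The causes were not tested.

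The replicate numbers were also fitted as a block. Correlations of same-numbered deviations were 0.44, 0.55 and -0.02, and those of differently numbered samples ran from -0.54 to 0.17. The value of 0.17 was that of knockout 3 with WT 2. These values do not settle whether the numbers pair the samples, and the main fit used no block. Under the block 7 neighbours were higher and 6 lower at p under 0.05, where 12.3% of all rows had such a p. They were 12 of 35 genes at higher coordinates (34.3%) and 1 of 24 at lower coordinates. Under the same block 1 row of the table was called, and Ggnbp2 was at 0.01.

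Tspoap1 in WT and Elobl in the knockout rest on few counts, so their fold changes are imprecise. The 13 untested rows had too few counts for a statement.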
